A study of Mus musculus with 16 samples.

Results

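Txnip and 8 genes read beside it were followed in the hippocampus of 16 female mice. The 9 genes were chosen by name from the 55335 genes of the counts table. Txnip was selected on its own group change, which was known from earlier results of these data, and the others were picked because they are known targets or receptors of glucocorticoids or known targets of glucose sensing. The question was whether the difference in Txnip goes with the glucocorticoid targets Sgk1, Fkbp5, Tsc22d3 and Zbtb16 or with the glucose-linked genes Arrdc4 and Pdk4. The corticosteroid receptors Nr3c1 and Nr3c2 completed the set. All 9 genes passed the filter on low counts, as did 16475 genes in all. Because the values of Txnip by group chose it, its group differences are given as a description without a test.

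The mice made 4 groups of 4. WT mice of the C57BL/6J x 129S1 background received vehicle (WT-D) or the stearoyl-CoA desaturase inhibitor CAY10566 (WT-S), and 3xTg mice received vehicle (3xTg-D) or CAY10566 (3xTg-S). 3xTg mice, a model of Alzheimer's disease, carry the human APPSwe and tau P301L transgenes, both of which are driven by Thy1.2 in neurons. Osmotic pumps delivered 80 µM CAY10566 in 0.8% DMSO, or the same vehicle, into the lateral ventricle for 28 days, so that every mouse had undergone surgery and infusion, and their age is labelled as 10 months. The hour of dissection and plasma glucocorticoids are not given in the sources used here. Reads on genes numbered 15413385 to 23590149 per mouse. The mean log2 CPM (counts scaled to library size) of 8 neuron markers was 9.21 to 9.50 in the 16 mice, while choroid plexus markers stood apart in 2 libraries, WT-D 4 and WT-S 1, with mean log2 CPM of 4.30 and 3.30, and lay between -0.34 and 1.41 in the other mice.

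Txnip encodes a protein of the alpha-arrestin family that binds thioredoxin and lowers glucose uptake at the cell surface. Its transcription is raised when glucose-derived phosphates accumulate, through MondoA (Mlxip) and ChREBP (Mlxipl), which bind paired E-boxes called carbohydrate response elements. The same sensors act on its relative Arrdc4. Glucocorticoids act through the glucocorticoid receptor, Nr3c1, and in hippocampal neurons also through the mineralocorticoid receptor, Nr3c2. The occupied receptors bind palindromic response elements near Sgk1, Fkbp5, Tsc22d3 and Zbtb16, and Txnip and Pdk4 are also known to respond to glucocorticoids. Pdk4, which switches off pyruvate dehydrogenase, is in addition a target of PPAR and FOXO factors, so its membership of the glucose-linked pair is not exclusive.

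The promoter windows of 4 of these genes are printed to show which of them hold the letters of the elements known from glucose and glucocorticoid targets. Sequences are from RefSeq on GRCm38.p6, run 5′ to 3′ on the strand of the gene, and span 250 bases before to 50 bases after a transcription start, and 7 of the 9 genes matched the table. Capitals mark matches on either strand to the carbohydrate response element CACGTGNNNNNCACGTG with up to 2 mismatches, to the E-box CACGTG that it repeats, or to the glucocorticoid response element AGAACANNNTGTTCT. The windows lie at chr3:96557707-96558006 (plus strand) for Txnip, chr7:68749189-68749488 (minus strand) for Arrdc4, chr6:5496229-5496528 (minus strand) for Pdk4 and chr10:21993640-21993939 (plus strand) for Sgk1, which has 6 listed starts, of which the fifth is shown because its window holds the last of these motifs.
Txnip: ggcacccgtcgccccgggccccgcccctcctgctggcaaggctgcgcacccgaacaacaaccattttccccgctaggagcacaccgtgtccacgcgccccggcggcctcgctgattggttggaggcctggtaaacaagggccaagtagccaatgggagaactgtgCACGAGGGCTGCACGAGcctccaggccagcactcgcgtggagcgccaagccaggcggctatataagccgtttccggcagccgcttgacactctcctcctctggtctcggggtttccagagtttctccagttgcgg
Arrdc4: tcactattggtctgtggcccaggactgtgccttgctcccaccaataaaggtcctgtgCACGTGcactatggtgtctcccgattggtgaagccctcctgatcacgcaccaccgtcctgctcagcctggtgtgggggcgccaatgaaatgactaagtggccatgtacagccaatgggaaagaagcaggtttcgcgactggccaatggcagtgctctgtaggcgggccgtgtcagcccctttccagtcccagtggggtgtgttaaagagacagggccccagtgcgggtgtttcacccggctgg
Pdk4: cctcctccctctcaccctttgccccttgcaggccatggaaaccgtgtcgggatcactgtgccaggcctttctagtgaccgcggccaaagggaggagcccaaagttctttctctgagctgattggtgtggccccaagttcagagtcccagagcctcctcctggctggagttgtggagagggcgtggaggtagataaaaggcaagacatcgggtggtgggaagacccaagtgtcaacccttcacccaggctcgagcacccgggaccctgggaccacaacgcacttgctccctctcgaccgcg
Sgk1: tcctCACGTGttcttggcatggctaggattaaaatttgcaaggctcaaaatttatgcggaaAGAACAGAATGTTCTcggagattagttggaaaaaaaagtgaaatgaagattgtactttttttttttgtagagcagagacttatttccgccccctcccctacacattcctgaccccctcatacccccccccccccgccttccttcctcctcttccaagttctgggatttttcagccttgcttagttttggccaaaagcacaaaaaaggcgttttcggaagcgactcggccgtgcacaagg

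In the Txnip window the match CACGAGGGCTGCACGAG began at position -85, counted backwards from the start, with 2 mismatches, and 0.953% of 32851 promoter windows held such a match. No window held the carbohydrate response element without a mismatch. Arrdc4 had 1 E-box at -193, a motif found in 7.15% of windows. Sgk1 had a perfect glucocorticoid response element, AGAACAGAATGTTCT, at -189, which 3 windows or 0.00913% of all windows held, and an E-box at -246. The Pdk4 window held none of these 3 motifs. The Fkbp5 window, at chr17:28486100-28486399 on the minus strand, had an E-box at -169 that overlapped a carbohydrate response element with 2 mismatches, CAAGGGCCAGACACGTG, at -180. These matches describe letters in a window and were not read as sites.

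Per length of exon, Nr3c2 was the most abundant of the 9 genes and Arrdc4 the least. Levels in CPM per kilobase of exon (mean ± SD over 16 mice) were 32.8 ± 2.58 for Nr3c2, 22.9 ± 4.86 for Sgk1, 19.2 ± 1.25 for Nr3c1 and 17.7 ± 3.43 for Tsc22d3. Zbtb16 followed at 13.8 ± 1.61, Fkbp5 at 8.37 ± 0.893, Txnip at 8.20 ± 2.33, Pdk4 at 6.52 ± 1.64 and Arrdc4 at 3.03 ± 0.217. The ranges over the 16 mice overlapped between every gene and the next in this order except between Zbtb16 and Fkbp5 and between Pdk4 and Arrdc4. Nr3c2 nevertheless exceeded Sgk1 within each of the 16 mice, while Fkbp5 exceeded Txnip in 9 of them. The 9 genes also differed in how much mice of 1 group varied. The within-group SD was 0.36 log2 units for Sgk1, 0.28 for Txnip and for Tsc22d3 and 0.27 for Pdk4, but 0.09 for Arrdc4 and 0.10 for Nr3c1. Txnip lies at chr3:96557957-96561883, and 606 bases (19.4%) of its exons overlap the antisense gene Gm15441. Whether reads were counted by strand is not stated, so Txnip counts are uncertain to that extent. Gm15441 itself had 1 to 8 reads per mouse against up to 1041 for Txnip. This does not show how many reads fell on the shared bases, since reads that match both genes may have been counted for neither. Further genes of the set lie at chr7:68736995-68749241 (Arrdc4), chr6:5483351-5496309 (Pdk4), chr10:21882184-21999903 (Sgk1), chr17:28399094-28517527 (Fkbp5), chrX:140539528-140600659 (Tsc22d3), chr9:48654297-48836222 (Zbtb16) and chr8:76899442-77245012 (Nr3c2).

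Txnip was higher in vehicle-infused 3xTg mice than in any other group. WT-D mice 1 to 4 had 30.0, 23.1, 25.7 and 16.4 CPM and 3xTg-D mice had 34.0, 43.7, 29.9 and 32.7 CPM. WT-S mice had 25.4, 21.8, 17.9 and 16.3 CPM and 3xTg-S mice had 26.6, 24.9, 23.1 and 18.4 CPM. Of the 3xTg-D mice, 3 of 4 exceeded all WT-D mice, and all 4 exceeded every 3xTg-S mouse, whereas WT-D and WT-S overlapped. The mean ± SD (n = 4) was 35.1 ± 5.99 CPM in 3xTg-D and 23.2 ± 3.54 CPM in 3xTg-S, and 23.8 ± 5.69 CPM in WT-D and 20.4 ± 4.07 CPM in WT-S. On the log2 scale 3xTg-D exceeded WT-D by 0.56 (SE 0.17), a fold of 1.47. 3xTg-S was below 3xTg-D by a log2 difference of -0.60 (SE 0.14), a fold of 0.661. It differed from WT-D by -0.06 (SE 0.17), a value that ran from -0.20 to 0.08 with single mice left out. With the choroid plexus score as a covariate this value was -0.34, and with the share of reads outside genes -0.02. In WT mice the difference with CAY10566 was -0.23 (SE 0.19), and that between the effects in 3xTg and WT mice was -0.37 (SE 0.25). These comparisons share their controls, WT-D or 3xTg-D, and are not independent of each other. With the choroid plexus score as a covariate the difference between 3xTg-D and WT-D was 0.30, and with the share of reads outside genes it was 0.35. With single mice left out it ran from 0.41 (without WT-D 4) to 0.69 (without WT-D 1). Without both WT-D 4 and WT-S 1 the difference in WT mice was -0.50 and that between the effects in the 2 genotypes was -0.11.

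**Figure D1:**
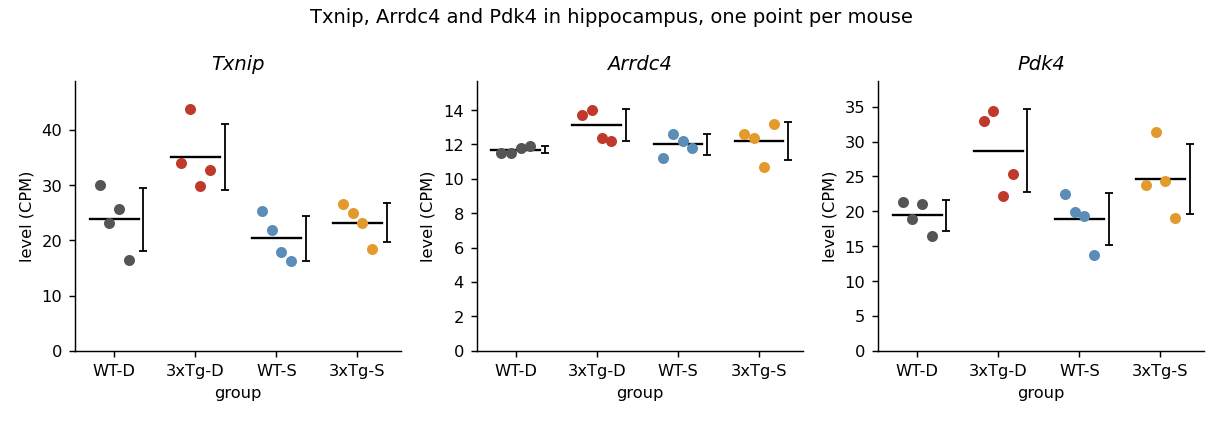
Level in CPM (y axis, from 0) of Txnip, Arrdc4 and Pdk4 in each of 4 mice per group (x axis), with the group mean as a line and the SD as a bar beside it. Txnip is highest in 3xTg-D, where the 4 mice run from 29.9 to 43.7 CPM, and Pdk4 is higher in 3xTg-D than in WT-D, while Arrdc4 stays between 10.7 and 14.0 CPM.

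Pdk4 rose in 3xTg-D, and Arrdc4 did not pass the test. WT-D mice had 21.3, 18.9, 21.0 and 16.4 CPM of Pdk4 and 3xTg-D mice had 33.0, 34.4, 22.2 and 25.4 CPM, without overlap. The log2 fold change was 0.57 (SE 0.14, 95% interval 0.26 to 0.88), with an unadjusted edgeR p of 0.00229 and an edgeR adjusted p = 0.0874 over all genes tested. DESeq2 gave an adjusted p of 0.00877 for Pdk4. With genes called where the edgeR p was at most 0.01 before adjustment, Pdk4 was the only one of the 8 genes other than Txnip to be called. None of the 8 passed an adjusted p of 0.05 by edgeR, and Pdk4 did so by DESeq2. In the same comparison 4.91% of all 16475 tested genes were called and 1.85% passed the adjusted threshold. With the share of reads outside genes as covariate the difference was 0.48 (unadjusted edgeR p of 0.0105), and with the choroid plexus score it was 0.42 (unadjusted edgeR p of 0.0224), so that the call was lost in both.

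The level of Pdk4 in 3xTg-S was not called different from 3xTg-D. 3xTg-S mice had 23.7, 31.3, 24.3 and 19.1 CPM, which overlapped 3xTg-D, and the log2 difference was -0.22 (SE 0.17; edgeR adjusted p = 0.740, 95% interval -0.60 to 0.15). Compared with WT-D, 3xTg-S mice had a log2 difference of 0.33 (SE 0.15; edgeR adjusted p = 0.376). WT-S mice, at 22.5, 19.9, 19.3 and 13.7 CPM, overlapped WT-D, with a difference of -0.04 (SE 0.14; edgeR adjusted p = 1.0). Whether Txnip and Pdk4 differ in their response to CAY10566 was not tested.

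Arrdc4 is the alpha-arrestin that shares its glucose sensors with Txnip and was not called by edgeR in any comparison. WT-D mice had 11.5, 11.5, 11.8 and 11.9 CPM and 3xTg-D mice had 13.7, 14.0, 12.4 and 12.2 CPM. The groups did not overlap, but the difference was small, with a log2 fold change of 0.16 (SE 0.08; edgeR adjusted p = 0.443, 95% interval -0.01 to 0.34). Arrdc4 and Pdk4 were the 2 of the 8 genes whose WT-D and 3xTg-D mice did not overlap, against 8.17% of all genes. WT-S mice had 11.2, 12.6, 12.2 and 11.8 CPM and 3xTg-S mice 12.6, 12.4, 10.7 and 13.2 CPM. 3xTg-S differed from 3xTg-D by -0.09 (SE 0.10; edgeR adjusted p = 0.791) and WT-S from WT-D by 0.03 (SE 0.08; edgeR adjusted p = 1.0).

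None of the 4 glucocorticoid targets was called in any comparison by edgeR or DESeq2. Sgk1, a kinase that regulates ion channels and transporters, had 88.8, 132, 136 and 86.2 CPM in WT-D and 148, 108, 96.6 and 118 CPM in 3xTg-D. WT-S mice had 139, 142, 89.9 and 63.8 CPM and 3xTg-S mice 109, 126, 111 and 105 CPM. All groups overlapped, and the widest spread, from 63.8 to 142 CPM, was within WT-S. The log2 difference between 3xTg-D and WT-D was 0.09 (SE 0.17; edgeR adjusted p = 0.879, 95% interval -0.29 to 0.47), and between 3xTg-S and 3xTg-D it was -0.06 (SE 0.12; edgeR adjusted p = 0.895, 95% interval -0.33 to 0.21).

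Fkbp5 is the co-chaperone that holds the glucocorticoid receptor in a state of low affinity. Its within-group SD was the smallest of the 4 at 0.16 log2 units, close to the 0.17 of Zbtb16. WT-D mice had 74.4, 80.5, 78.0 and 73.0 CPM, and 3xTg-D mice 73.5, 88.6, 87.8 and 70.6 CPM. WT-S mice had 73.8, 83.3, 77.1 and 76.3 CPM, and 3xTg-S mice 74.6, 98.4, 90.8 and 66.8 CPM, so that the lowest and the highest of the 16 values were both in 3xTg-S. 3xTg-D differed from WT-D by 0.07 (SE 0.08; edgeR adjusted p = 0.773, 95% interval -0.11 to 0.25) and 3xTg-S from 3xTg-D by 0.04 (SE 0.13; edgeR adjusted p = 0.928, 95% interval -0.24 to 0.32).

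Tsc22d3, also known as GILZ and a mediator of anti-inflammatory effects of glucocorticoids, had 58.8, 85.2, 89.8 and 57.7 CPM in WT-D and 88.2, 103, 78.0 and 68.8 CPM in 3xTg-D. WT-S mice had 71.6, 74.3, 73.7 and 55.9 CPM and 3xTg-S mice 69.8, 104, 84.6 and 63.2 CPM, and all groups overlapped. The difference between 3xTg-D and WT-D was 0.22 (SE 0.16; edgeR adjusted p = 0.640, 95% interval -0.15 to 0.58). Between 3xTg-S and 3xTg-D it was -0.07 (SE 0.16; edgeR adjusted p = 0.909).

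Zbtb16, the zinc finger factor PLZF, was lower rather than higher in the mean of 3xTg-D. WT-D mice had 63.8, 73.0, 90.9 and 73.9 CPM, and 3xTg-D mice 69.8, 75.3, 66.4 and 60.1 CPM, which overlapped (-0.15, SE 0.10; edgeR adjusted p = 0.607). WT-S mice had 59.8, 62.9, 79.1 and 80.1 CPM and 3xTg-S mice 74.0, 77.1, 80.5 and 77.0 CPM. Its difference between 3xTg-S and 3xTg-D had the opposite sign to that of Txnip, 0.18 (SE 0.07; edgeR adjusted p = 0.722), and 3 of the 4 3xTg-S mice exceeded all 3xTg-D mice.

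**Figure D2:**
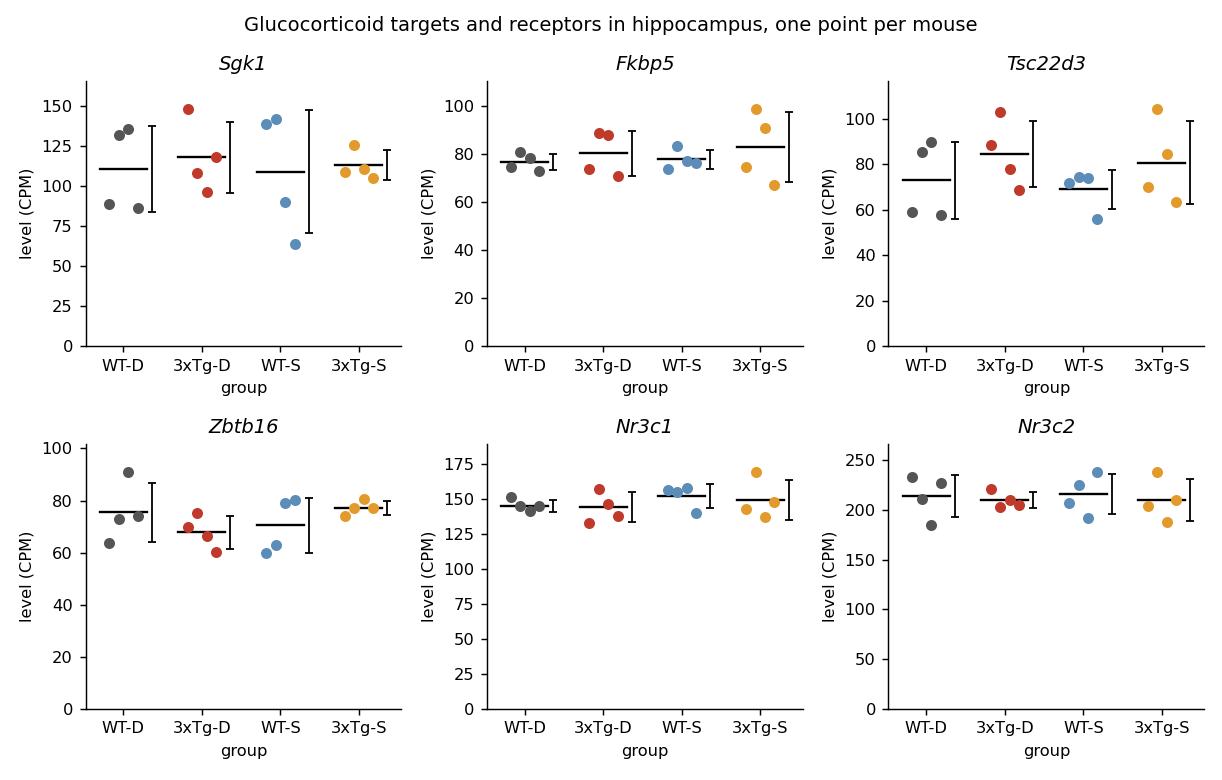
Level in CPM (y axis, from 0) of the glucocorticoid targets Sgk1, Fkbp5, Tsc22d3 and Zbtb16 and the receptors Nr3c1 and Nr3c2 in each mouse of the 4 groups (x axis), with the mean as a line and the SD as a bar beside it. The groups overlap in all 6 panels for 3xTg-D against WT-D and for 3xTg-S against 3xTg-D.

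The receptors were not called either. Nr3c1, the glucocorticoid receptor, ranged from 141 to 151 CPM in WT-D and from 133 to 157 CPM in 3xTg-D. Its range was 140 to 158 CPM in WT-S and 137 to 169 CPM in 3xTg-S, so that all groups overlapped. The difference between 3xTg-D and WT-D was -0.02 (SE 0.06; edgeR adjusted p = 0.939, 95% interval -0.15 to 0.12). Nr3c2, the mineralocorticoid receptor, had 233, 211, 185 and 227 CPM in WT-D and 221, 203, 210 and 205 CPM in 3xTg-D. WT-S mice had 207, 225, 192 and 238 CPM and 3xTg-S mice 204, 238, 188 and 210 CPM, and all groups overlapped. Its difference between 3xTg-D and WT-D was -0.03 (SE 0.07; edgeR adjusted p = 0.901, 95% interval -0.19 to 0.13), and 3.82% of its exon length overlaps another gene, Gm10649.

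In the comparisons with CAY10566, 0 of the 8 genes were called by edgeR or by DESeq2. Between 3xTg-S and 3xTg-D, 1 of the 8, Zbtb16, had an unadjusted p under 0.05 by either tool, and 0.904% of all genes were called. No gene of the 16475 passed the adjusted threshold there (0.0%) by either tool, and 1043 had an unadjusted edgeR p under 0.05. Between WT-S and WT-D, none of the 8 had an unadjusted p under 0.05 by either tool, and 0.188% of all genes were called. Here 371 genes had an edgeR p under 0.05, 0 (0.0%) passed the adjusted threshold, and DESeq2 passed 2. The share of all genes whose groups did not overlap was 3.16% for 3xTg-S against 3xTg-D and 1.48% for WT-S against WT-D, with 0 of the 8 genes in both.

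Against WT-D, 3xTg-S mice showed no call among the 8 genes by either tool, with 1, Pdk4, at an unadjusted p under 0.05, where 5.69% of all genes were called and 1.58% passed adjustment. Without the mouse 3xTg-S 4, Pdk4 was called there at a log2 difference of 0.43. Against WT-S, 3xTg-S mice again showed no call among the 8 by either tool, and none had an edgeR p under 0.05, while DESeq2 gave 1 (Pdk4), and 4.26% of all genes were called and 1.4% passed adjustment. The test of whether the effect of CAY10566 differed between genotypes called 0 of the 8 genes by either tool, none with a p under 0.05, against 0.595% of all genes. Across all genes 821 had an edgeR p under 0.05 in that test, 0 (0.0%) passed adjustment, and DESeq2 passed 1. The median log2 fold change of the 8 genes was 0.08 between 3xTg-D and WT-D and -0.03 between 3xTg-S and 3xTg-D, and the median over all genes was 0 and 0.01.

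**Figure D3:**
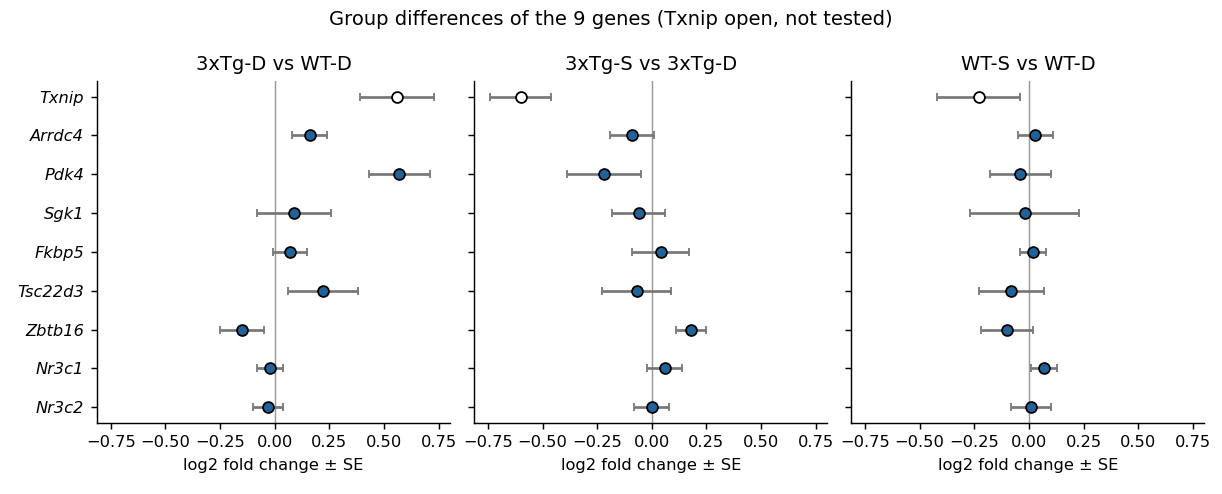
Log2 fold change with its SE (x axis) of the 9 genes (y axis) between 3xTg-D and WT-D, 3xTg-S and 3xTg-D, and WT-S and WT-D, with Txnip open because it was not tested. Txnip and Pdk4 lie near 0.56 and 0.57 in the first panel, Txnip alone lies at -0.60 in the second, and the 4 glucocorticoid targets lie between -0.15 and 0.22 in both.

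The group differences chose Txnip, but its variation among mice of 1 group did not, and so the deviations of each mouse from its group mean were compared. Pdk4 followed Txnip from mouse to mouse with a within-group Pearson r of 0.784 over 16 mice (permutation p = 0.0004 for 100000 permutations of mice within groups) and a Spearman rho of 0.738 (permutation p = 0.00249). Its r ranked 59th of 16474 genes, of which 4.85% had a permutation p of 0.01 or less. Adjusted over all these genes the p was 0.141, and no gene (0.0%) passed an adjusted p of 0.05, while 3220 had a permutation p under 0.05. The r was 0.706 without 3xTg-D 2 and WT-S 4, the mice farthest from the median of Txnip, and 0.744 to 0.825 with each mouse left out in turn.

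The other 7 genes did not pass this test. Sgk1 (r = 0.485, permutation p = 0.119; rho = 0.418, permutation p = 0.176) and Tsc22d3 (r = 0.476, permutation p = 0.111; rho = 0.491, permutation p = 0.0947) were next. Without WT-D 1 the r of Tsc22d3 was 0.724 (permutation p = 0.00990). Nr3c1 had an r of 0.365 (permutation p = 0.159) and Fkbp5 of 0.284 (permutation p = 0.274). Arrdc4 had an r of -0.0193 (permutation p = 0.940). Zbtb16 had -0.275 (permutation p = 0.409) and Nr3c2 -0.146 (permutation p = 0.651). In all 8 correlations with Txnip were computed, and their p adjusted over all genes ranged from 0.141 for Pdk4 to 0.972 for Arrdc4.

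**Figure D4:**
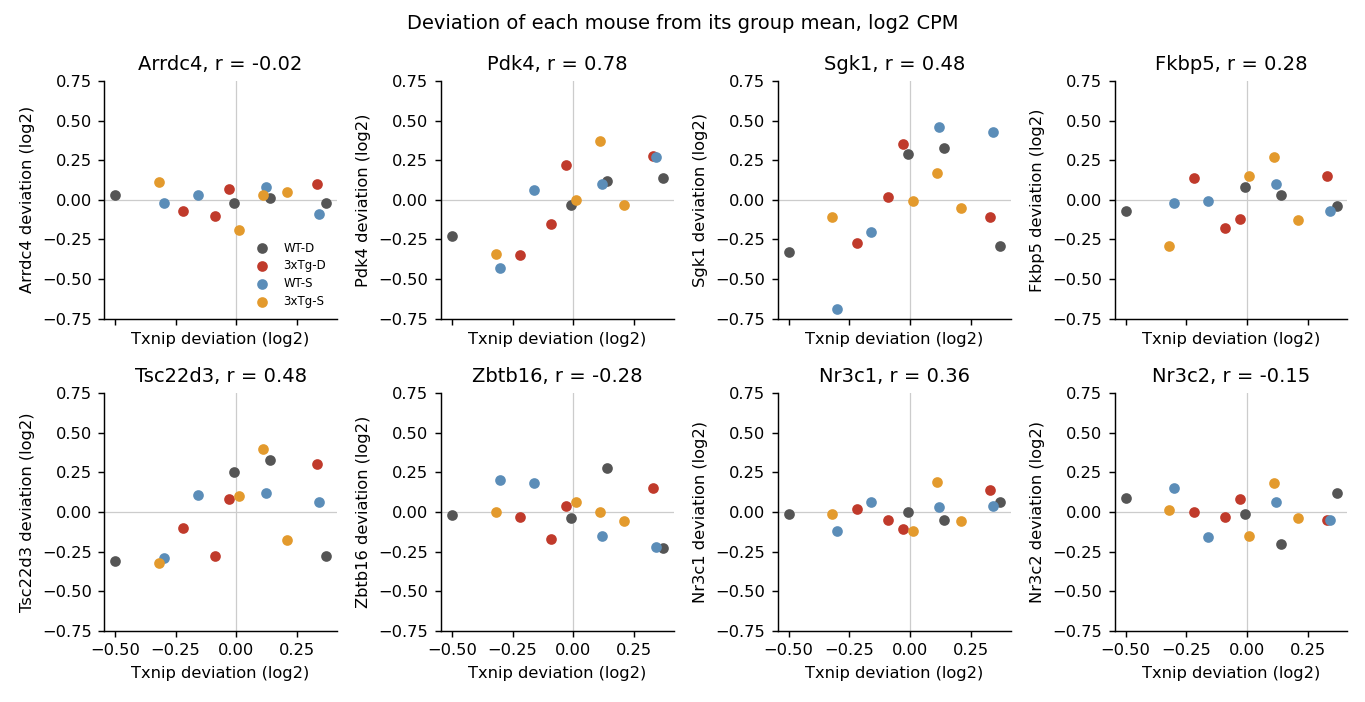
Deviation of each of 16 mice from its group mean in log2 CPM, for Txnip (x axis) against each of the other 8 genes (y axis), colored by group, with the within-group Pearson r. The Pdk4 points rise along a line (r = 0.784), while the Arrdc4 points lie flat (r = -0.0193).

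Several measured features moved with Txnip and Pdk4 together, and the correlation was recomputed with each of them taken out. The 4 mice numbered 4 in the labels lay below their group means in every group, by 0.09 to 0.50 log2 units for Txnip and by 0.15 to 0.43 for Pdk4, and the labels do not say what a number marks. With the replicate number also subtracted the r between Txnip and Pdk4 was 0.419 (permutation p = 0.318), so that the call was lost. The share of reads outside genes, 7.82 to 15.1% per mouse, had a within-group r of -0.538 with Txnip and -0.711 with Pdk4, as well as -0.785 with Fkbp5, -0.756 with Nr3c1 and -0.697 with Tsc22d3. With that share regressed out, Pdk4 kept an r of 0.678 with Txnip (permutation p = 0.00660), while that of Fkbp5 was -0.264 and that of Nr3c1 -0.0749.

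Glial markers moved with Txnip as well. The mean log2 CPM of 6 astrocyte markers ran from 8.18 to 8.82 in 3xTg-D and from 7.96 to 8.36 in 3xTg-S. In WT-D it ran from 8.11 to 8.30, and WT-S mice lay between 8.10 and 8.26. By edgeR none of the 6 was called between 3xTg-D and WT-D, with 2 at a p under 0.05, and DESeq2 called 1. Of 13 such measures set against Txnip, the astrocyte score (r = 0.658, permutation p = 0.00213, adjusted over the 13 p = 0.0259) and the score of 5 ependyma markers (r = 0.724, permutation p = 0.00398, adjusted p = 0.0259) passed adjustment, with rho of 0.738 and 0.765 (adjusted permutation p = 0.0166 for both). Without the 2 mice farthest from the median of Txnip these r were 0.551 and 0.716. Within each group, the mouse numbered 4 had the lowest astrocyte score and the lowest ependyma score. Whether these 2 correlations hold with the replicate number subtracted was not tested, and their permutation p do not allow for it. The microglia score had an r of 0.644 (permutation p = 0.0183, adjusted p = 0.0794) and the oligodendrocyte score of 0.467 (permutation p = 0.0905). The mouse 3xTg-D 2, which had the most Txnip, also had the highest astrocyte (8.82) and microglia (6.71) scores of all 16.

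With the astrocyte score regressed out, the r between Txnip and Pdk4 was 0.605 (permutation p = 0.0237), and with the microglia score it was 0.636 (permutation p = 0.0328). With the oligodendrocyte score it was 0.731 (permutation p = 0.0167) and with the ependyma score 0.490 (permutation p = 0.0762), so that the call at 0.01 was lost with each of the 4 scores. Of 6 oligodendrocyte markers, 3 were called higher between 3xTg-D and WT-D, Mbp and Mobp among them. All 3 passed an edgeR adjusted p of 0.05. In that comparison 5 of the 6 log2 fold changes lay above 0, 4.91% of all genes were called and 1.85% passed adjustment. Between 3xTg-S and 3xTg-D, where 0.904% of all genes were called, 2 of the 6 (Mag and Cnp) were lower. In 3xTg-S against WT-D, 2 of the 6 (Mag and Mog) were lower, beside 5.69% of all genes called. Of the ependyma markers, 1 of 5 (Foxj1) was lower between 3xTg-D and WT-D. Between 3xTg-S and 3xTg-D 3 of 5 (Rarres2, Ccdc153 and Foxj1) were lower. These markers were named after their values were seen. In whole hippocampus, more cells of a type and more RNA of a gene per cell cannot be told apart.

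Among the 9 genes themselves, 36 pairs were compared within groups as a description. Pdk4 had an r of 0.726 with Tsc22d3, 0.642 with Sgk1, 0.397 with Fkbp5 and -0.0990 with Zbtb16. With the replicate number also subtracted these were 0.704, 0.368, 0.0463 and 0.170. Sgk1 and Tsc22d3 had an r of 0.616, and Fkbp5 and Tsc22d3 had 0.705, which was -0.0351 with the replicate number subtracted.

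The genes whose levels over all 16 mice were most like Txnip in Pearson r, which includes the group difference that chose Txnip, were Dhrs1 (0.901), Trf (0.867), Epb41l2 (0.844), Vat1 (0.842), Nectin2 (0.839), Klk6 (0.836), Pdk4 (0.828), Sh2b2 (0.819), Sirt2 (0.815) and Kcne1l (0.808). Trf, the gene of transferrin, and Klk6 had group means that were highest in 3xTg-D, at 300 and 2.95 CPM, against 241 and 1.19 CPM in WT-D. Both were picked from these genes after their values were seen, and the ranking itself favors such an order of groups. Within groups the most alike were Mblac2 (0.882), Pnp (0.880), Oas1c (0.880), Cyp4v3 (0.874), Arfgap3 (0.860), Gab2 (0.849), Tmem86a (0.844), Hist1h1e (0.843), Prdx4 (0.841) and Copz2 (0.839), and no gene was in both lists. For Fkbp5 the 5 most alike over the 16 mice were Msrb2 (0.904), Htra1 (0.903), Gpt2 (0.885), Myrip (0.868) and Hacd2 (0.861). Within groups they were Msrb2 (0.911), Htra1 (0.903), Fzd9 (0.899), Ezr (0.899) and Hacd2 (0.888).

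Of 25 further glucocorticoid targets, 1 (4.0%) was called between 3xTg-D and WT-D, against 4.91% of all genes. This was Angptl4, an inhibitor of lipoprotein lipase that is a target of PPAR factors too, with a log2 fold change of 0.77 (SE 0.22; edgeR adjusted p = 0.154). Of the 25 log2 fold changes, 17 lay above 0. None of the 25 was called by edgeR or DESeq2 between 3xTg-S and 3xTg-D or between WT-S and WT-D, where 2 and 1 had an edgeR p under 0.05. The median log2 fold change was 0.09 between 3xTg-D and WT-D and -0.11 between 3xTg-S and 3xTg-D. Of 15 receptor chaperones, cofactors and steroid enzymes tested, none was called by either tool in these 3 comparisons, and 0, 3 and 0 had an edgeR p under 0.05.

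None of 16 glucose sensors and their targets, Mlxip and Mlxipl among them, was called by either tool in the same 3 comparisons. Their median log2 fold changes were -0.03, -0.01 and -0.02, and 1, 0 and 0 genes had an edgeR p under 0.05. Of 18 PPAR and FOXO targets, 2, Angptl4 and Cpt1a, the carnitine palmitoyltransferase of mitochondrial fatty acid import, were called between 3xTg-D and WT-D, the latter by 0.23 (SE 0.07; edgeR adjusted p = 0.177). Of 8 alpha-arrestins and thioredoxin genes, Arrdc3 rose by 0.23 (SE 0.05; edgeR adjusted p = 0.0718). Of 7 pyruvate dehydrogenase genes, Pdhb, a subunit of the enzyme that Pdk4 inhibits, fell by 0.22 (SE 0.07; edgeR adjusted p = 0.159). These counts of 2 of 18, 1 of 8 and 1 of 7 stand beside 4.91% of all genes called. Angptl4, Cpt1a, Arrdc3 and Pdhb did not overlap between 3xTg-D and WT-D, as 8.17% of all genes did not. They were named for being called there, so this is no further support. None was called by either tool between 3xTg-S and 3xTg-D. There Angptl4 (-0.56), Cpt1a (-0.20) and Arrdc3 (-0.20) had an edgeR p under 0.05, as had 1043 of 16475 genes. This comparison reuses the 3xTg-D mice in which these genes were called higher, which by itself favors a fall.

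Relatives of the targets, clock genes and immediate early genes completed the lists. Between 3xTg-S and 3xTg-D, 0.904% of all genes were called and none passed adjustment. There 1 of 7 relatives was called, Tsc22d2, with a log2 fold change of 0.28 (SE 0.09; edgeR adjusted p = 0.722). So was 1 of 16 clock and clock output genes, Dbp, a factor whose level follows the time of day (-0.45, SE 0.09; edgeR adjusted p = 0.722). In 3xTg-S against WT-D, where 5.69% of all genes were called, 1 of the 16 was called. This was Clock, at 0.18 (SE 0.06; edgeR adjusted p = 0.170). Of 12 immediate early genes, edgeR called 1 between 3xTg-D and WT-D, against 4.91% of all genes. This was Nr4a1, with a log2 fold change of -0.78 (SE 0.18; edgeR adjusted p = 0.0589), and DESeq2 called 3 of the 12. Against WT-S, 1 of 25 further glucocorticoid targets (Hif3a, 0.59) was called in 3xTg-S. So were 1 of 15 receptor chaperones, cofactors and steroid enzymes (Crhbp, -0.62) and 1 of 16 glucose sensors and targets (Acaca, 0.29). In that comparison 4.26% of all genes were called, and none of these lists held a gene that passed an adjusted p of 0.05.

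The variation of these lists with Txnip within groups is given as a description, since their genes share the same 16 libraries. The median within-group r with Txnip was 0.376 for the 25 glucocorticoid targets, of which 24 lay above 0, and 0.0411 for the 16 glucose sensors and targets, of which 9 did, against -0.00432 for all tested genes, of which 8180 of 16474 did. It was 0.331 for PPAR and FOXO targets and 0.476 for alpha-arrestins and thioredoxin genes, with 7 of 8 above 0. In the glucocorticoid list Errfi1 had the highest r (0.759), and in the glucose list Khk (0.647) had the highest and the sensor Mlxipl (-0.553) the lowest. The clock list was split, with Ciart (0.698), Dbp (0.662) and Nr1d1 (0.649) at the top and Arntl (-0.759) and Per3 (-0.687) at the bottom. Errfi1, Khk, Mlxipl and these clock genes other than Dbp were chosen after their values were seen. The marker lists of astrocytes (0.540) and microglia (0.607) had higher medians than any of these lists.

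**Figure D5:**
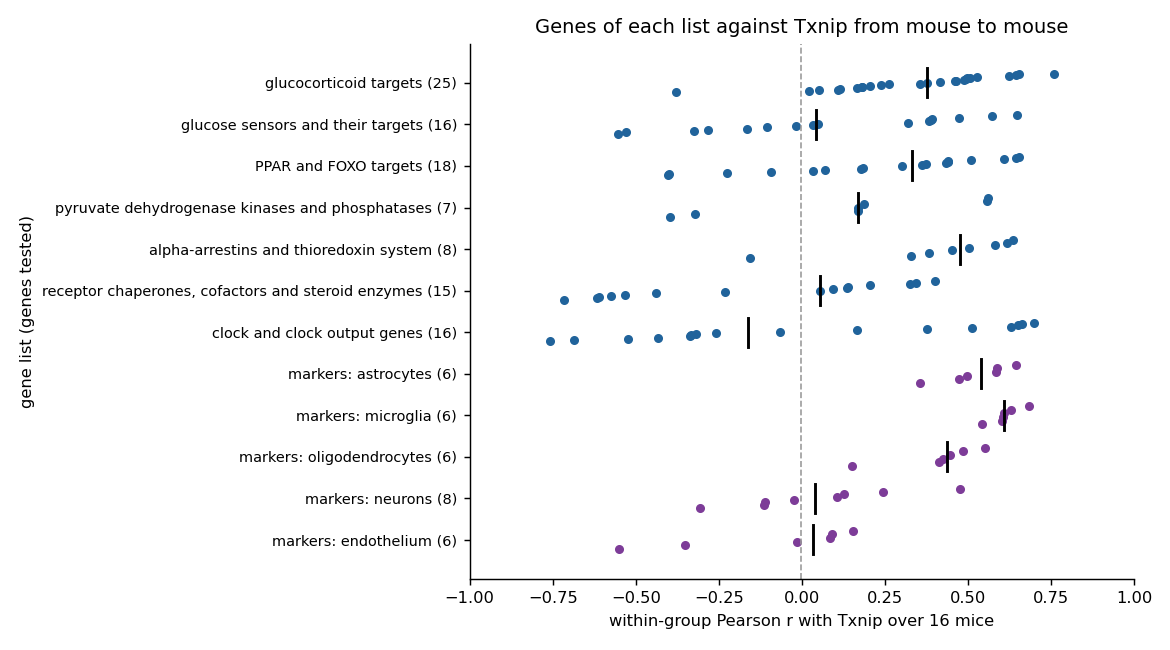
Within-group Pearson r with Txnip over 16 mice (x axis) of each tested gene (points, cell type markers in purple) of 12 lists (y axis, with the number of genes), the list median as a black bar and the median of all tested genes as a dashed line at -0.00432. The glucocorticoid targets lie mostly right of 0 (median 0.376), the glucose list is spread around it (0.0411), and the astrocyte and microglia markers lie farthest right (0.540 and 0.607).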

How the data were processed

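The authors trimmed single-end reads with Trimmomatic 0.35, aligned them with STAR 2.5.1b to GRCm38 with Gencode annotation, and deposited raw counts per gene without normalization. Every sample column was read, and the 4 alignment summary lines were kept out of library sizes and tests. Neither the strand setting nor the use of molecular identifiers in counting is stated. The 9 genes and all gene lists were chosen with earlier results of these data known.

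Counts were analysed in R 4.3.3. filterByExpr of edgeR 4.0.16 (minimum count 10, minimum total 15) left 16475 genes, and TMM factors were applied within each comparison. Pairs of groups were fitted with the quasi-likelihood test of edgeR, two-sided, with calls at p of 0.01 or less, the threshold of the study, and Benjamini-Hochberg adjustment over all tested genes. The interaction was fitted to all 16 mice. Replicates are numbered samples of a group, and p-values measure the spread between them. Levels are CPM with TMM factors, and correlations used their log2 with 2 as prior count. The p of a within-group correlation was adjusted over all tested genes in place of the 8 genes alone. Exon lengths and overlaps came from Gencode M21 on the same build, and promoters from RefSeq.

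Named were all 9 genes, genes of the other lists called in 3xTg-D or 3xTg-S against WT-D, 3xTg-S against 3xTg-D or WT-S against WT-D, the 10 genes most like Txnip and the 5 most like Fkbp5. Hif3a, Crhbp and Acaca, called in 3xTg-S against WT-S, were named outside that rule. Mice share replicate numbers 1 to 4 in the labels. The correlation across genes of the deviations of same-numbered mice was above 0.1 in every pair for WT-S against WT-D only (0.114 to 0.34), and there the block changed no call of the 9 genes. The smallest chi-square per degree of freedom between replicate libraries was 3.91, above counting noise. Alternatives were DESeq2 1.42.0, median-ratio size factors, other filters, a joint fit of all mice, the replicate number as block, 2 covariates, the adjusted threshold and each mouse left out. Leaving out both libraries high in choroid plexus markers and regressing out glial or ependyma scores were added after seeing the data. With a covariate, the residuals of Txnip were permuted within groups. The fits and the correlation test were tested on simulated data. One allele of the 3xTg mice and 1 marker gene are not reported here.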

Additional observations from a re-analysis of the deposited data

Results flagged for a closer look

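Each of the 4 groups was searched for a mouse far from its other 3 with Dixon's test at the 95% level, for the 9 genes and 8 genes named from the other lists. That made 68 groups, of which chance flags about 1 in 20, and 2 were found. Tsc22d3 was at 55.9 CPM in WT-S 4, where the nearest WT-S mouse had 71.6 CPM, a gap of 0.852 of the range of the group. Angptl4 was at 1.97 CPM in WT-S 1, one of the libraries high in choroid plexus markers, where the nearest mouse had 1.15 CPM, a gap of 0.883 of the range. For Tsc22d2 the effects of CAY10566 differed between 3xTg and WT mice by 0.37 on the log2 scale, with an unadjusted edgeR p of 0.00267 and an edgeR adjusted p = 0.788.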

How the results depend on the processing

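With 4 mice per group, the printed intervals give the differences that these data do not exclude. The cause of the changes below was not tested. At an adjusted p of 0.05, 0 of the 8 genes were called between 3xTg-D and WT-D, as with the share of reads outside genes (0) or the choroid plexus score (0) as covariate. With the share as covariate Pdk4 was called between 3xTg-S and WT-D (1 gene, 0.36), and Pdk4 (0.50) and Tsc22d3 (0.34) between 3xTg-S and WT-S (2 genes). With the replicate block Pdk4 was called between 3xTg-S and WT-S (1 gene, 0.37). The block gave a log2 fold change of 0.56 for Pdk4 between 3xTg-D and WT-D, still called, and changed no other call of a difference between groups. Outside WT-S against WT-D, the correlation of same-numbered mice fell to -0.101 to 0.0616 in at least 1 pair, so the numbers were not read as pairs. Its mean was nevertheless 0.213, 0.176 and 0.241 for 3xTg-S against 3xTg-D, WT-D and WT-S, and -0.0655, -0.0584 and -0.084 for mice of unlike number. For WT-S against WT-D these means were 0.217 and -0.0728, and for 3xTg-D against WT-D 0.0414 and -0.0104. What a number shares was not tested, and p-values without the number do not allow for it. DESeq2 passed 511, 585 and 402 genes at an adjusted p of 0.05 where edgeR passed 305, 261 and 230 (3xTg-D and 3xTg-S against WT-D, and 3xTg-S against WT-S).

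Of 416 log2 fold changes of the 8 tested genes under settings that kept all replicates or left out the libraries high in choroid plexus markers, 392 kept their direction and call, and 18 changed sign, none of them called. With the share as covariate these were Fkbp5 (-0.03) between 3xTg-D and WT-D, Tsc22d3 (0.08) between 3xTg-S and 3xTg-D and Nr3c1 (0.01) between 3xTg-S and WT-S, and in the interaction Pdk4 (0.05), Sgk1 (0.15), Nr3c1 (0.08) and Nr3c2 (0.01). With the choroid plexus score they were Sgk1 between 3xTg-D and WT-D (-0.05) and 3xTg-S and WT-D (-0.12), Nr3c1 between 3xTg-S and WT-D (-0.01) and Arrdc4 between 3xTg-S and WT-S (-0.03). Without the libraries high in choroid plexus markers they were Sgk1 in the same comparisons (-0.02 and -0.09) and in the interaction (0.20), and Arrdc4 between 3xTg-S and WT-S (-0.01). Without a filter on low counts they were Fkbp5 (-0.01) and Tsc22d3 (-0.02) in the interaction, the latter also with the replicate block (-0.02).

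The within-group correlation with Txnip kept its sign and call in 51 of 64 such settings. That of Pdk4 was no longer called with the replicate number (0.419) or the astrocyte (0.605), microglia (0.636), oligodendrocyte (0.731) or ependyma score (0.490) taken out. The correlation changed sign for Arrdc4 with the ependyma score (0.0333), for Fkbp5 with the share (-0.264), astrocyte (-0.235) or microglia score (-0.0434), for Nr3c1 with the same (-0.0749, -0.113 and -0.148), and for Nr3c2 without the 2 mice farthest from the median of Txnip (0.0522). With each mouse left out, Pdk4 stayed called between 3xTg-D and WT-D and in its correlation with Txnip, that of Tsc22d3 was called without WT-D 1 (0.724), and 64 of 448 log2 fold changes of the 8 tested genes and 5 of 128 correlations changed sign. That of Txnip changed sign between 3xTg-S and WT-D, without WT-D 1 (0.08) or 3xTg-S 4 (0.05), within a range of -0.20 to 0.08.

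Ranges with each mouse left out are given for the tested genes that changed sign or call. Between 3xTg-D and WT-D they were -0.04 to 0.20 for Sgk1, -0.07 to 0.02 for Nr3c1 and -0.10 to 0.01 for Nr3c2. Between 3xTg-S and 3xTg-D they were -0.14 to 0.07 for Sgk1, -0.05 to 0.13 for Fkbp5, -0.22 to 0.03 for Tsc22d3 and -0.01 to 0.09 for Nr3c1. Between WT-S and WT-D they were -0.14 to 0.09 for Pdk4, -0.18 to 0.16 for Sgk1, -0.01 to 0.05 for Fkbp5, -0.18 to 0.03 for Tsc22d3 and -0.06 to 0.06 for Nr3c2. Between 3xTg-S and WT-D they were -0.09 to 0.12 for Sgk1, -0.02 to 0.24 for Tsc22d3, -0.05 to 0.12 for Zbtb16, -0.04 to 0.06 for Nr3c1 and 0.19 to 0.43 for Pdk4, with 0 to 1 genes called. Between 3xTg-S and WT-S they were -0.02 to 0.08 for Arrdc4, -0.15 to 0.19 for Sgk1 and -0.02 to 0.17 for Fkbp5. In the interaction they were -0.24 to 0.12 for Sgk1, -0.09 to 0.10 for Fkbp5, -0.16 to 0.11 for Tsc22d3, -0.09 to 0.02 for Nr3c1 and -0.09 to 0.06 for Nr3c2. The correlation of Arrdc4 with Txnip ranged from -0.195 to 0.159.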
